A study of Homo sapiens with 8 samples.

Results

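The subject is the pair of lists of progesterone receptor (PR) sites from the latest and the earliest hormone time of a ChIP-seq time course, 360 min and 5 min after addition of the progestin R5020 (10 nM) to T47D-MTVL cells. Its members are all 23841 sites listed at 360 min and all 22973 listed at 5 min, together 46814 of the 97966 PR sites in the 5 lists of the series. These cells derive from the human breast cancer line T47D, of luminal type, and hold an integrated reporter driven by the mouse mammary tumour virus promoter, which responds to progestins. Both cultures had been kept in medium with charcoal-treated serum and then without serum before R5020, and both lists come from the same antibody to PR. The other data used here are PR lists from unstimulated cells (0 min) and from cells given R5020 for 30 and 60 min, and 3 lists of chromatin regions from unstimulated cells, for RNA polymerase II and for histone H3 with 1 (H3K4me1) or 3 (H3K4me3) methyl groups on lysine 4. Each of the 8 groups holds 1 library of 1 cell line, so differences between times stand without replication and carry no p-value. The lists hold positions alone, with no height, and the read depths are unknown, so a site missing from a list is not shown to have been unbound. All intervals are 95% intervals over the sites of 1 library and cover counting error only.

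PR is a nuclear receptor that is activated by progestins. The hormone-bound receptor binds hormone response elements in DNA and recruits coregulators and chromatin remodelling enzymes to enhancers and promoters. H3K4me1 marks enhancers and the flanks of promoters, H3K4me3 marks active promoters, and RNA polymerase II is found where transcription starts or proceeds. R5020 (promegestone) is a synthetic progestin that is degraded more slowly than progesterone in cultured cells.

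Close to 50% of the sites of either list were found in the other one. Of the 360 min sites, 11599 (48.7%, 48.0 to 49.3%) overlapped a 5 min site by 1 bp or more, and 12242 (51.3%) did not. Of the 5 min sites, 11613 (50.6%, 49.9 to 51.2%) overlapped a 360 min site, and 11360 (49.4%) did not. After merging there were 35042 sites. Those of 360 min alone made up 34.9% of them, those of 5 min alone 32.4%, and shared ones 32.6%. So 23602 listed sites, the exclusive sites, stood in 1 of the lists. By length, 45.6% of the bases listed at 360 min and 46.0% of those listed at 5 min lay in the other list.

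Shared sites lay at nearly the same place in both lists, though the overlap rule itself keeps their midpoints closer than the mean of their widths. Of the shared sites, 11145 pairs matched 1 to 1, with a median distance between midpoints of 24 bp (quartiles 10.5 and 46.5 bp), and 77.5% (76.7 to 78.2%) of the pairs lay within 50 bp. The paired sites were slightly narrower at 360 min, with a median width of 284 bp against 298 bp at 5 min. The median difference within a pair, 360 min minus 5 min, was -9 bp (quartiles -64 and 40 bp), and 55.0% (54.1 to 56.0%) of the pairs were narrower at 360 min. Only 169 of the shared 360 min sites overlapped more than 1 site of the 5 min list.

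Sites listed at 1 of the times were narrower than shared ones, and most had no site of the other list within 10 kb. Their median width was 246 bp for 360 min only and 244 bp for 5 min only sites, against 285 bp for the 360 min copies of shared sites and 299 bp for their 5 min copies. In both lists the shared percentage was larger in wider sites. Of the narrowest quartile of the 360 min sites (224 bp or less) 31.0% (29.8 to 32.1%) were shared, and of the widest (over 336 bp) 63.4% (62.1 to 64.6%). In the 5 min list these shares were 30.4% (29.2 to 31.6%) and 68.3% (67.1 to 69.5%). Near misses were few: 4.80% (4.43 to 5.20%) of the 360 min only sites had a 5 min site within 500 bp, and 6.40% (5.96 to 6.87%) of the 5 min only sites had a 360 min site within 500 bp. A site of the other list lay within 10 kb of 30.2% (29.4 to 31.0%) of the 360 min only sites and 32.9% (32.1 to 33.8%) of the 5 min only sites, and 19.2% and 19.9% of these classes had none within 100 kb.

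The intermediate lists placed the classes differently in time. Sites of the 360 min only class were often listed before 360 min, 48.4% (47.5 to 49.2%) of them at 30 min and 54.4% (53.5 to 55.3%) at 60 min. For the 5 min only class the 30 min list held 30.1% (29.2 to 30.9%) and the 60 min list 22.4% (21.7 to 23.2%). At both intermediate times stood 38.9% (38.0 to 39.8%) of the 360 min only sites, 17.4% (16.7 to 18.1%) of the 5 min only sites and 88.3% (87.7 to 88.8%) of the shared sites. At neither stood 36.1% (35.3 to 37.0%), 65.0% (64.1 to 65.8%) and 3.48% (3.16 to 3.83%) of these classes. A gap in the middle of the time course was thus listed for 404 of the 11599 shared sites. These were narrow, with a median width of 225 bp against 291 bp for shared sites listed at both 30 and 60 min. Before hormone, 6 of the 12242 360 min only sites were listed, 13 of the 11360 5 min only sites and 84 of the 11599 shared sites.

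**Figure D1:**
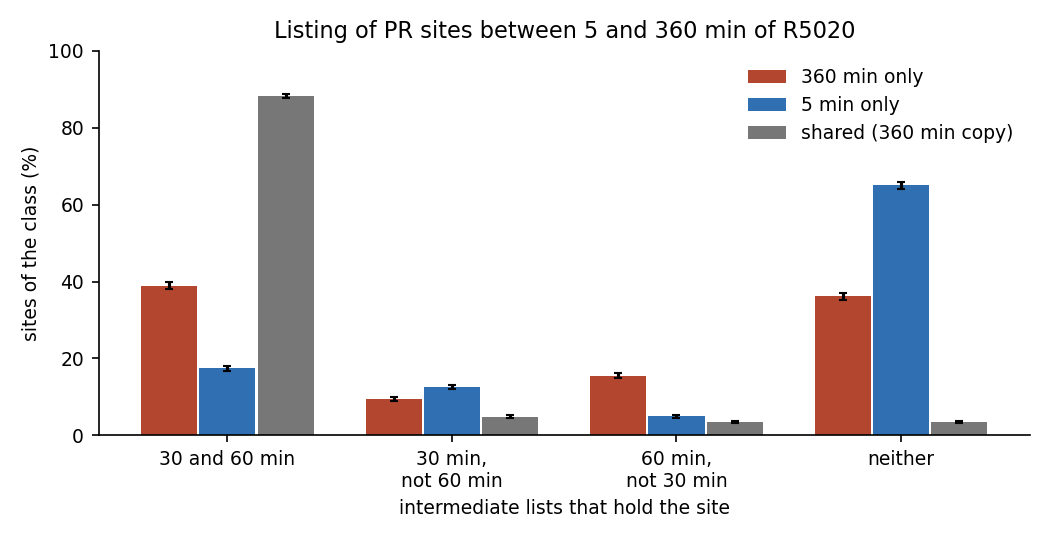
Bars give the percent of each class of PR sites (360 min only, 5 min only, and the 360 min copies of shared sites) found in the 30 and 60 min lists, and error bars the exact 95% interval over sites. Of the 5 min only sites 65.0% are in neither list, against 36.1% of the 360 min only sites, and 88.3% of the shared sites are in both.

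The chromatin of unstimulated cells differed between the classes. H3K4me1 regions held 31.2% (30.4 to 32.0%) of the 360 min only sites, 42.1% (41.2 to 43.0%) of the 5 min only sites and 59.7% (58.8 to 60.6%) of the shared sites. The difference between the exclusive classes, 360 min only minus 5 min only, was -10.9 percentage points (Newcombe interval -12.14 to -9.69). RNA polymerase II regions held 3.87% (3.54 to 4.23%) of the 360 min only sites, 6.22% (5.79 to 6.68%) of the 5 min only sites and 11.8% (11.2 to 12.4%) of the shared sites. For H3K4me3 the exclusive classes were closer, at 2.71% (2.43 to 3.02%) and 3.17% (2.85 to 3.51%), with 5.74% (5.33 to 6.18%) of the shared sites. That H3K4me3 difference of -0.46 points (-0.89 to -0.03) depended on the setting. With the wider 50% of the chromatin regions it was 0.16 points in the other direction (-0.20 to 0.51). The interval also included 0 by site midpoint (-0.45 to 0.34), with a reciprocal overlap of 50% and with no site of the other list within 1 kb. Leaving out chromosome 1 or chromosome 3 gave the same. It stayed below 0 for sites within 1 kb of a region and in the wider 50% of each list. In none of the 3 kinds of region lay 67.8% (66.9 to 68.6%) of the 360 min only sites, 56.9% (56.0 to 57.8%) of the 5 min only sites and 38.9% (38.0 to 39.8%) of the shared sites. H3K4me1 with polymerase but without H3K4me3, a combination known from active enhancers, was present at 1.84% (1.61 to 2.09%) of the 360 min only sites, 3.83% (3.48 to 4.20%) of the 5 min only sites and 7.63% (7.15 to 8.13%) of the shared sites.

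The difference between the exclusive classes was largest in wide sites. In the narrowest quartile, set over both lists, H3K4me1 regions held 33.0% (31.6 to 34.5%) of the 360 min only sites and 34.4% (32.9 to 35.9%) of the 5 min only sites, and these intervals overlap. In the widest quartile the shares were 30.7% (28.7 to 32.8%) and 55.4% (53.2 to 57.7%). From narrow to wide, the H3K4me1 share of 5 min only sites was 34.4%, 38.7%, 49.4% and 55.4%, while that of 360 min only sites stayed between 29.7% and 33.0%. RNA polymerase II also separated the widest sites more than the narrowest, where the 360 min only share was the higher one with overlapping intervals. Its regions held 4.86% (4.23 to 5.55%) of the narrowest 360 min only and 4.36% (3.75 to 5.03%) of the narrowest 5 min only sites, against 3.31% (2.57 to 4.18%) and 10.2% (8.87 to 11.6%) of the widest. The widest shared sites, in their 360 min copy, were at 63.6% (62.0 to 65.2%) for H3K4me1 and 12.5% (11.4 to 13.6%) for polymerase, so the widest 5 min only sites lay closer to them than the widest 360 min only sites.

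**Figure D2:**
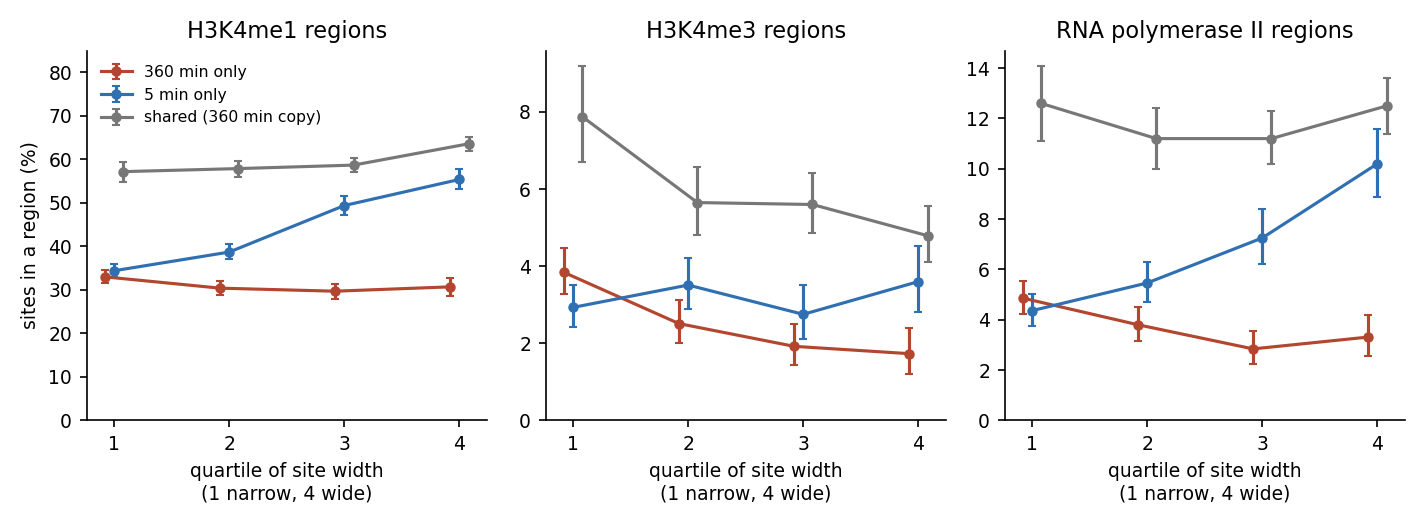
Points give the percent of PR sites of each class that overlap H3K4me1, H3K4me3 and RNA polymerase II regions of unstimulated cells, by quartile of site width over both lists, with exact 95% intervals over sites. The lines of 360 min only and 5 min only sites start together in narrow sites and part in wide ones for H3K4me1 (30.7% and 55.4%) and for RNA polymerase II (3.31% and 10.2%).

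The same order was seen when the intermediate times were held equal. Of the exclusive sites also listed at both 30 and 60 min, H3K4me1 regions held 35.1% (33.8 to 36.5%) of the 4761 360 min only sites and 54.3% (52.1 to 56.5%) of the 1981 5 min only sites. RNA polymerase II regions held 3.84% (3.32 to 4.43%) and 10.9% (9.56 to 12.4%) of them. For sites listed at 30 but not at 60 min the H3K4me1 shares were 31.6% (28.9 to 34.3%) and 50.2% (47.6 to 52.8%), and for sites listed at 60 but not at 30 min 32.1% (30.0 to 34.3%) and 55.9% (51.7 to 60.0%). The H3K4me1 difference was smallest for sites listed at neither time, where most 5 min only sites stood. There H3K4me1 regions held 26.5% (25.2 to 27.8%) of the 4422 360 min only and 36.2% (35.1 to 37.3%) of the 7379 5 min only sites. RNA polymerase II regions held 3.03% (2.54 to 3.58%) and 4.69% (4.22 to 5.20%) of them. For sites listed at 30 but not at 60 min the polymerase shares were 4.57% (3.44 to 5.94%) and 6.14% (4.95 to 7.51%), with overlapping intervals. For sites listed at 60 but not at 30 min they were 5.47% (4.49 to 6.59%) and 10.1% (7.70 to 12.8%). Of the shared sites missing from both intermediate lists, 52.5% (47.5 to 57.4%) overlapped an H3K4me1 region.

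The flanks of the classes differed less once overlap with an H3K4me1 region was held equal. Within 10 kb on either side, H3K4me1 regions covered on average 20.9% of the flanks of 360 min only sites, 24.5% of those of 5 min only sites and 33.4% of those of shared sites. Among sites inside an H3K4me1 region the covered shares were 49.7%, 47.8% and 50.5%, and among sites outside one 7.90%, 7.65% and 7.94%. Outside sites of the 360 min only class had an H3K4me1 region within 1 kb in 7.22% of cases, against 11.5% for the 5 min only class and 11.8% for shared sites. At longer range the order was the other way. Only 13.5% of the outside 360 min only sites lay over 100 kb from such a region, against 17.7% of the 5 min only and 16.5% of the shared sites, and their median gap was below the 16.7 kb of 5 min only sites.

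Seen from the chromatin regions, 8284 of the 73263 H3K4me1 regions (11.3%) held a 360 min site and 8861 (12.1%) held a 5 min site. Of these, 2516 held sites of the 360 min list and none of the 5 min list, 3093 the reverse, and 5768 held sites of both. Nearly all regions with sites of both lists had a shared site, and 158 had sites of both lists without one. Regions of 360 min sites alone were wider, at a median of 3287 bp against 2921 bp for regions of 5 min sites alone and 2124 bp over all H3K4me1 regions. RNA polymerase II regions followed the same pattern, with 474 regions of 360 min sites alone, 682 of 5 min sites alone and 1341 of both. For H3K4me3 these counts were 338, 375 and 650.

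Fewer than 50% of the sites of either list had a close neighbour in it, 45.6% (44.9 to 46.2%) of the 360 min and 46.1% (45.5 to 46.8%) of the 5 min sites within 10 kb, and chance levels were not computed. The percentage of shared sites was larger in longer runs of sites. Another site of the same list was found within 10 kb for 39.9% (39.0 to 40.8%) of the 360 min only sites, 42.9% (42.0 to 43.8%) of the 5 min only sites and 51.5% (50.6 to 52.4%) of the shared sites in their 360 min copy. The order of the exclusive classes at 10 kb depended on H3K4me1. Inside H3K4me1 regions the share was 55.6% (54.0 to 57.2%) for 360 min only and 60.2% (58.8 to 61.6%) for 5 min only sites. Outside them it was 32.8% (31.8 to 33.8%) for 360 min only and 30.3% (29.2 to 31.5%) for 5 min only sites. Over all exclusive sites the contrast was largest for very close neighbours. Within 1 kb the shares were 12.5% (11.9 to 13.1%) and 17.8% (17.1 to 18.5%), and within 50 kb they were 72.7% (71.9 to 73.5%) and 71.8% (70.9 to 72.6%). With sites of a list within 500 bp merged into 1, the difference at 10 kb was -0.81 points, with an interval that includes 0 (-2.08 to 0.45). Exclusive sites had an exclusive neighbour of their own class more often than one of the other class, and a shared neighbour nearly as often as one of their own. A 360 min only site had another 360 min only site within 10 kb in 25.7% of cases, a shared site in 23.1% and a 5 min only site in 12.0%. For 5 min only sites the share with another 5 min only site was 30.1%, with a shared site 25.3% and with a 360 min only site 13.0%.

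Joining merged sites with gaps of at most 10 kb gave 23465 chains, of which 17110 were single sites and 6355 had 2 or more. Shared sites made up 26.8% of sites that stood alone, 39.5% in chains of 3 to 4 sites and 49.4% in the 66 chains of 10 or more. Among exclusive sites, 53.4% (52.5 to 54.2%) of those standing alone were 360 min only, against 43.0% (40.8 to 45.3%) in chains of 5 to 9 sites. The share of sites in H3K4me1 regions was 30.1% for lone sites and 82.6% in the longest group of chains. Most chains with 2 or more sites mixed classes. Shared sites were in 4181 of them and made up 604 alone, while 780 held 360 min only sites alone, 714 held 5 min only sites alone, and 680 mixed the exclusive kinds without a shared site.

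**Figure D3:**
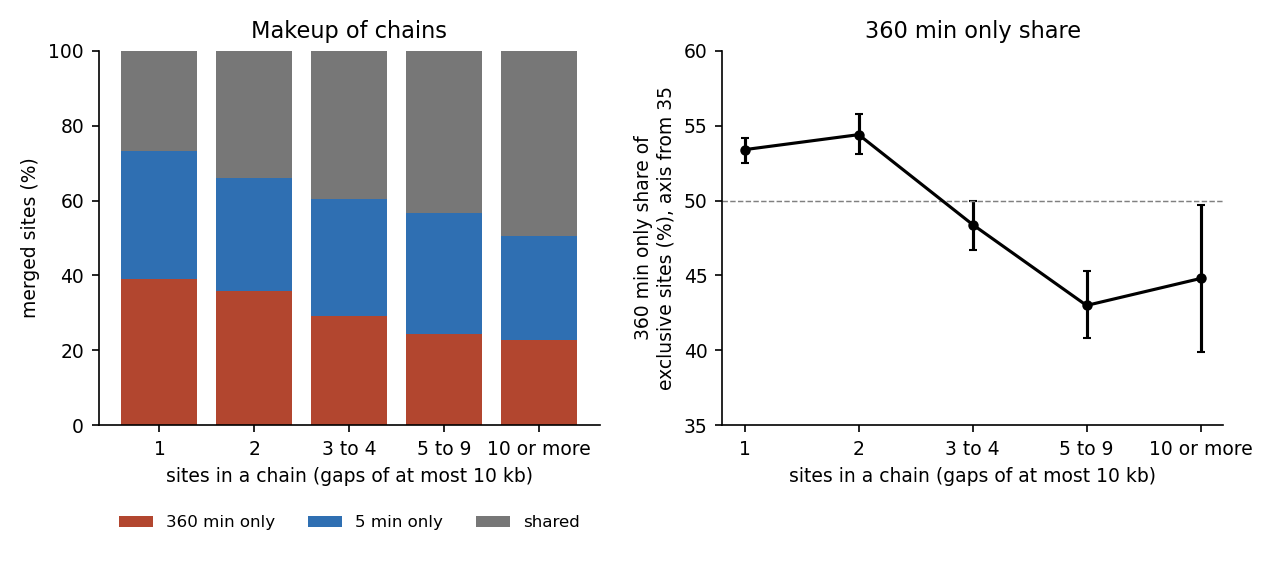
Left, makeup of chains of merged PR sites (gaps of at most 10 kb) in percent of sites, by number of sites in the chain; right, the 360 min only share of the exclusive sites with exact 95% intervals, on an axis that starts at 35%. Shared sites make up 26.8% of lone sites and 49.4% of sites in chains of 10 or more, and the 360 min only share is 53.4% for lone sites and 43.0% in chains of 5 to 9.

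The 5 largest chains differed in makeup. The longest, on chromosome 6 from 12270854 to 12332658, held 21 merged sites over 61.8 kb, with 2 at 360 min only, 6 at 5 min only and 13 shared. Of its sites 18 lay in H3K4me1 regions and 14 in RNA polymerase II regions. The chain on chromosome 8 from 116656005 to 116708888 held 20 sites, 2 at 360 min only, 5 at 5 min only and 13 shared. On chromosome 12, from 116673840 to 116737267, none of 18 sites was 360 min only, 11 were 5 min only and 7 were shared. The opposite leaning was found on chromosome 10 from 79615145 to 79652969, where 6 of 17 sites were 360 min only, 1 was 5 min only and 10 were shared. The fifth, on chromosome 15 from 99396401 to 99427718, had 17 sites, 2 at 360 min only, 6 at 5 min only and 9 shared, all of them in H3K4me1 regions. The longest chains made of 360 min only sites alone had 5 sites (chromosome 1 from 172400820 to 172422661 and chromosome 11 from 72118143 to 72136792). Those of 5 min only sites alone had 7 (chromosome 1 from 215570971 to 215581617 and chromosome 2 from 19325652 to 19343659). These 4 chains were picked after their values were seen.

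Exclusive sites were unevenly spread over the chromosomes. Over the whole genome 51.9% (51.2 to 52.5%) of the 23602 exclusive sites were 360 min only. This share was highest on chromosomes 22 (66.2%, 60.8 to 71.2%), 19 (64.7%, 59.4 to 69.8%) and 16 (61.3%, 57.6 to 64.9%). It was lowest on chromosomes 3 (42.8%, 40.8 to 44.9%), 21 (45.2%, 39.9 to 50.6%) and 8 (46.8%, 44.1 to 49.5%). Of 23 chromosomes, 13 had an interval above 50%, 4 an interval below it and 6 an interval that included it. The 360 min list was the longer one, so the genome's share of 51.9% is the nearer reference. The intervals of chromosomes 1 and 11, both from 50.5%, included that share. Those of chromosomes 10 and 21, both up to 50.6%, lay below it. Chromosome 22 had 370 sites at 360 min and 266 at 5 min, a ratio of 1.39, while chromosome 3 had 2005 and 2329, a ratio of 0.861. Chromosome 3 took 10.1% (9.75 to 10.5%) of all sites at 5 min. Its percentage was 8.88% (8.53 to 9.23%) at 30 min, 8.47% (8.12 to 8.82%) at 60 min, 8.41% (8.06 to 8.77%) at 360 min. Before hormone it was 26.4% (23.5 to 29.5%) of the 844 listed sites. Few 5 min sites overlapped that short list, 13 of the 5 min only sites and 80 of the shared ones. The percentages before hormone and at 5 min thus rest on largely different sites. The number of copies of each chromosome in these cells was not analysed here, and its part in these counts was not tested.

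On each of the 23 chromosomes the 360 min only share was lower inside H3K4me1 regions than outside them, at 44.4% (43.3 to 45.5%) and 56.2% (55.4 to 57.0%) over the genome. The widest spread between them was on chromosome X, with 30.2% inside and 61.7% outside. Chromosome 19 had 51.2% inside and 77.3% outside. In 5 Mb bins with 20 or more exclusive sites (485 bins) the 360 min only share had a median of 51.4% and quartiles of 42.1 and 63.6%. The interval lay above the genome's share in 82 bins and below it in 62 bins. The low share of chromosome 3 was not spread evenly along it. Each of its bins from 160 to 195 Mb had an interval below the genome's share, with shares from 22.7% to 35.7%. The bin from 170 to 175 Mb held 38 sites at 360 min only and 121 at 5 min only. In 4 other bins of chromosome 3 the interval lay above the genome's share. This stretch was picked after the values were seen. The lowest share was in the bin from 65 to 70 Mb of chromosome 10, with 6 sites at 360 min only and 30 at 5 min only. Next were chromosome 13 from 70 to 75 Mb (5 and 23) and chromosome 9 from 10 to 15 Mb (7 and 31). The highest shares were on chromosome 19 from 10 to 15 Mb, with 25 sites at 360 min only and 3 at 5 min only, and in the bin from 45 to 50 Mb of chromosome 21, with 33 and 4. Chromosome 21 as a whole had one of the lowest shares. Bins at the ends of chromosome 16 (0 to 5 Mb, 45 and 8), chromosome 11 (0 to 5 Mb, 33 and 6) and chromosome X (150 to 155 Mb, 18 and 3) completed the upper end.

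**Figure D4:**
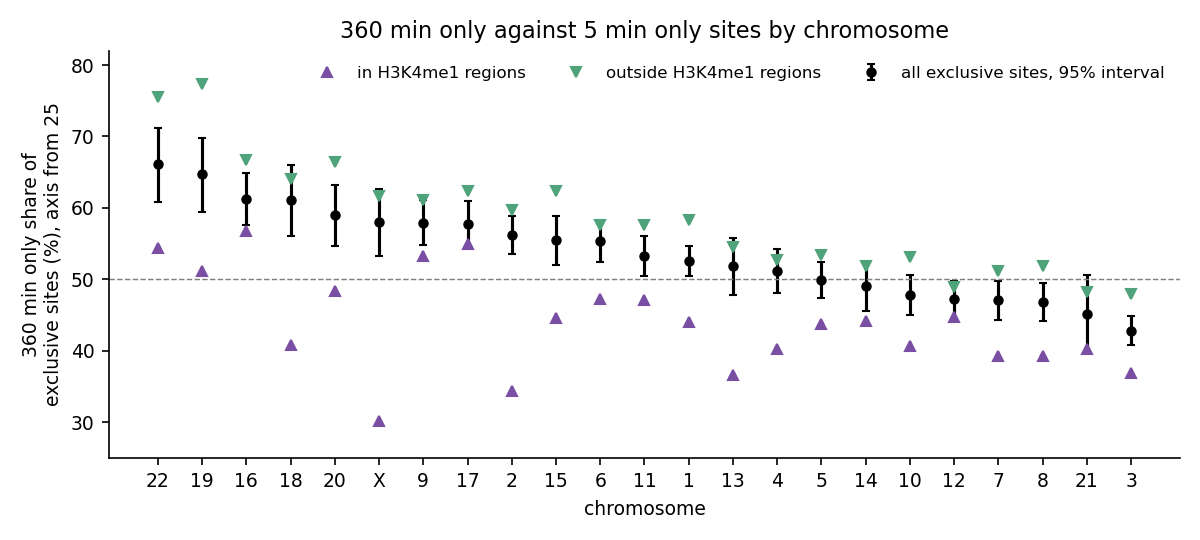
Points give the 360 min only share of exclusive sites on each chromosome with exact 95% intervals, and triangles the same share inside and outside H3K4me1 regions, on an axis that starts at 25%. Chromosome 22 (66.2%) is highest and chromosome 3 (42.8%) lowest, and the share outside H3K4me1 regions is above the share inside them on each of the 23 chromosomes.

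Nucleosome-sized DNA was compared through the authors' table of the 60 min PR sites, which gives normalized reads from DNA left by micrococcal nuclease (MNase), an enzyme that cuts between nucleosomes, in R5020-treated and unstimulated cells. The 60 min list held 54.4% of the 360 min only sites and 22.4% of the 5 min only sites, so most 5 min only sites have no MNase value. The ratio in the authors' deposited table is unstimulated over R5020, so a value above 1 means fewer normalized reads after hormone. The MNase libraries are not among the samples used here. A scaling factor between the conditions would move all ratios together, so only differences between classes are read, not their distance from 1. By the authors' deposited table, this ratio had a median of 1.25 (1.24 to 1.27) at the 6608 sites also listed at 360 but not 5 min and 1.22 (1.20 to 1.24) at the 2486 sites also listed at 5 but not 360 min. The 10634 sites listed at 5, 60 and 360 min had 1.39 (1.38 to 1.40) in the authors' deposited table. These classes differ in chromatin, with 34.4%, 54.5% and 60.5% of their sites in H3K4me1 regions, so the comparison was repeated within chromatin classes. Inside H3K4me1 regions the medians of the authors' deposited table were 1.45 (1.43 to 1.47), 1.40 (1.37 to 1.44) and 1.55 (1.53 to 1.57). Outside them the authors' deposited table gave 1.17 (1.16 to 1.18), 1.08 (1.06 to 1.11) and 1.18 (1.17 to 1.20). Outside H3K4me1 regions, sites listed at 360 but not 5 min were thus close to the sites of all 3 times, while sites listed at 5 but not 360 min had a lower ratio. The 60 min sites listed at neither 5 nor 360 min had a like value of 1.09 (1.08 to 1.11) there in the authors' deposited table. So the low ratio was not particular to 60 min sites also listed at 5 but not 360 min. At these outside sites the medians of unstimulated reads in the authors' deposited table were 26.9, 22.7 and 24.1 per 100 bp, and they were not held equal. In RNA polymerase II regions the intervals of the 60 min sites also listed at 360 but not 5 min, or at 5 but not 360 min, overlapped. Their medians in the authors' deposited table were 1.91 (1.79 to 1.99) and 1.89 (1.78 to 2.00). Sites of all 3 times had 2.07 (2.02 to 2.11) there in the authors' deposited table. The 60 min sites listed at neither 5 nor 360 min had the highest median there, 2.22 (2.07 to 2.32) in the authors' deposited table.

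**Figure D5:**
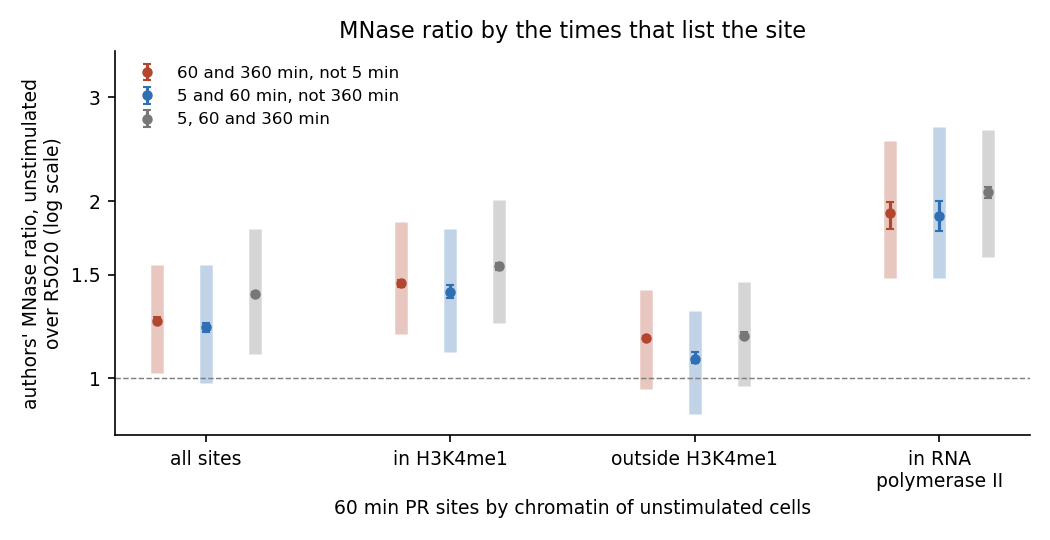
Points give the median of the authors' MNase ratio (unstimulated over R5020, log axis) at 60 min PR sites by the other times that list them and by chromatin, error bars its 95% order-statistic interval, and pale bars the quartiles. Outside H3K4me1 regions the medians are 1.17 for sites also at 360 but not 5 min, 1.08 for sites also at 5 but not 360 min and 1.18 for sites at all 3 times.

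The single sites named here are the widest of each class and do not stand for it. Of the 10 widest 360 min only sites, 3 overlapped an H3K4me1 region, none a polymerase region, and 9 were listed at 60 min. Over the whole class these shares were 31.2%, 3.87% and 54.4%. First by width came a site of 1249 bp on chromosome 8, from 102635721 to 102636970. It had no mark of the 3 kinds, was listed at 30 and 60 min, and lay 10.2 kb from the nearest 5 min site. It was followed by chromosome 10 from 29714861 to 29715873 (1012 bp), unmarked and 54.7 kb from a 5 min site, with an MNase ratio of 0.780 in the authors' deposited table. The site on chromosome 12 from 45229346 to 45230185 (839 bp) overlapped an H3K4me1 region and was also the widest 360 min only site with no 5 min site within 100 kb, the nearest being 309 kb away. Among the 5 such isolated sites the one on chromosome 2 from 145316995 to 145317725 lay farthest from the 5 min list, at 717 kb, and it was listed at 30 and 60 min.

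Of the 10 widest 5 min only sites, 6 overlapped H3K4me1 regions, 3 of them also polymerase regions, and 5 were listed at 60 min. In the whole class 42.1% overlapped H3K4me1 regions, 6.22% polymerase regions, and 22.4% were listed at 60 min. The widest, on chromosome 16 from 17067390 to 17068553 (1163 bp), was in an H3K4me1 region and was listed at 30 and 60 min. The second, on chromosome 7 from 142825835 to 142826995 (1160 bp), was in an H3K4me1 region and in neither intermediate list. Several were near misses. The site on chromosome 1 from 71340096 to 71341195 lay 0.0360 kb from a 360 min site, and that on chromosome 20 from 49343655 to 49344665 lay 0.166 kb from one. Among the 5 widest with no 360 min site within 100 kb, 3 had no mark and were in neither intermediate list, led by chromosome 11 from 91216861 to 91217853 (992 bp).

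The 10 widest shared sites, ordered by the smaller of their widths, all overlapped H3K4me1 regions and were all listed at 30 and 60 min, and 5 lay in polymerase regions. Over all shared sites, in their 360 min copy, these shares were 59.7%, 88.3% and 11.8%. The first, on chromosome 5 from 1326372 to 1327937 at 360 min and from 1326369 to 1327934 at 5 min, had the same width of 1565 bp in both lists and overlapped regions of all 3 kinds. Another of the 10 lay next to it, from 1328265 to 1329194 at 360 min. A pair of the 10 also lay close together on chromosome 22, from 29218860 to 29219782 and from 29214313 to 29215144 at 360 min. The site on chromosome 19 from 41426762 to 41427697 was the only one of the 10 that was listed before hormone. MNase ratios of the 10 sites in the authors' deposited table lay between 1.49 and 2.70, and 9 of them were above 1.55, the median there for sites of all 3 times inside H3K4me1 regions.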

How the data were processed

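The authors deposited 1 list of positions for each PR or chromatin sample. The build is hg19, per the submitters' processing notes. The aligner, caller, thresholds and input control are among the steps not given in the sources used here. Coordinates are printed as listed. The authors' MNase values are normalized reads rounded to whole numbers, treated as a score, and the deposited ratio is theirs, per the file headers.

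Sites sharing 1 bp or more were called shared. Shares carry exact Clopper-Pearson 95% intervals, differences of shares Newcombe intervals, and medians order-statistic intervals. No test between times was possible with 1 library each. Chromosome ends were taken as the first and last listed base. The named sites were the widest of each class, the largest chains, and the chromosomes and bins at either end. The members, lists and rules were chosen with earlier results of these data known. No genome or annotation of hg19 was used here, so sites were assigned to no gene, motifs and transcription starts were not analysed, and no sequence is shown. The code for overlaps and for gaps between sites was tested on simulated lists. The software was pandas 2.3.3, SciPy 1.17.1, Matplotlib 3.10.9 and NumPy 2.4.6 under Python 3.11.15.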

Additional observations from a re-analysis of the deposited data

How the results depend on the processing

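The lists carry no score, so width stood in for a stricter threshold. For the wider 50% of each list, sharing was called again within the cut lists. A wide site whose partner was cut thus counts as exclusive in all values of that setting. In the full lists the shared percentage was larger in wider sites, so the lower percentages below do not show that wider sites are shared less. Percent of sites shared (48.7% of 360 min and 50.6% of 5 min sites) was 45.0% and 46.7% with a reciprocal overlap of 50%, 44.5% and 46.1% with midpoints within 100 bp, 51.1% and 53.7% for sites within 500 bp, 44.7% and 46.7% in the wider 50% of each list, and 49.5% and 49.7% with the widest sites in lists of equal length. Without chromosome 3, an alternative added after seeing the data, 51.3% of 5 min sites were shared. The H3K4me1 difference, 360 min only minus 5 min only (-10.9 points), was -12.6 points for sites within 1 kb of a region, -7.12 points with the wider 50% of chromatin regions and -19.0 points in the wider 50% of each list. For 360 min only minus shared sites (-28.5 points) it was -23.1 points with the wider chromatin regions, -26.1 points with reciprocal overlap and -31.3 points for exclusive sites with no site of the other list within 1 kb. For RNA polymerase II (-2.35 points) these were -1.79 points by midpoint, -3.04 points within 1 kb of a region, -1.05 points with the wider chromatin regions, -5.84 points in the wider 50% of each list and -1.71 points with no site of the other list within 1 kb. The H3K4me3 difference (-0.46 points) was 0.16 points, reversed, with the wider chromatin regions, with an interval that includes 0 (-0.20 to 0.51), and -1.18 points in the wider 50% of each list. The clustering difference at 10 kb (-3.01 points) was -5.36 points at 1 kb, -0.81 points with sites within 500 bp merged and 0.91 points, reversed, at 50 kb. Median MNase ratios from the authors' deposited table for sites also at 360 but not 5 min, also at 5 but not 360 min and at all 3 times were 1.45, 1.40 and 1.55 inside and 1.17, 1.08 and 1.18 outside H3K4me1 regions, and the last was 1.37 without the upper and lower 5% of ratios. The cause of these changes was not tested. Of 70 recomputed values 35 moved by less than counting error, and 2 changed sign. Alternatives on motifs and transcription starts were not run, since no genome of the files' build was used. No paired analysis was possible because each time has 1 library and no result comes from a test. Unknown read depths limit what a missing site can show.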

Other observations

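Chromosome ends held more 360 min only than 5 min only sites, in a split chosen after the bins had been seen. Within 5 Mb of the first or last listed base of a chromosome lay 1274 sites at 360 min only and 672 at 5 min only, so that 65.5% (63.3 to 67.6%) of the exclusive sites there were 360 min only, against 50.6% farther in. Both chromatin classes showed it. Near the ends 59.9% (56.9 to 62.9%) of exclusive sites inside H3K4me1 regions and 71.8% (68.8 to 74.7%) of those outside them were 360 min only, against 42.3% (41.1 to 43.4%) and 55.1% (54.3 to 56.0%) farther in. The share of a whole list that lay near the ends was 18.5% before hormone, 7.51% at 5 min, 8.65% at 30 min, 9.26% at 60 min, 9.76% at 360 min. With 1 library per time, hormone time and library cannot be told apart in these values. For chromosomes whose short arm carries no listed region, the first listed base is near the centromere.

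The H3K4me1 difference between the exclusive classes had the same direction in regions sparse and dense in H3K4me1. In 5 Mb bins grouped by their number of H3K4me1 regions, those regions held 3.14% (2.31 to 4.16%) of the 360 min only and 7.92% (6.59 to 9.41%) of the 5 min only sites in the sparsest quartile of bins. In the next quartile the shares were 10.9% (9.68 to 12.3%) and 24.4% (22.6 to 26.2%), then 26.0% (24.5 to 27.5%) and 41.3% (39.6 to 43.1%), and in the densest quartile 51.5% (50.1 to 52.8%) and 62.3% (60.8 to 63.7%). This grouping was also chosen after the values had been seen.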
